A study of Arabidopsis thaliana with 74 samples.

Results

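The pericentromere of chromosome 5 of Arabidopsis thaliana was examined through the genes with identifiers from AT5G26600 to AT5G36500 that end in 0 or 5. Of 362 such identifiers in the count table, 204 had at least 1 CPM in at least 2 libraries and were kept, out of 19383 genes that passed this filter in the whole table. In this paragraph CPM is the count divided by the plain library total in units of 1 M counts. In later paragraphs that total is TMM-scaled. The other 158 identifiers were below the filter, and 55 of them had no count in any library. AT5G28650 lay just inside the filter, with 1.07 CPM in its second-highest library, and AT5G28450 just outside it, with 1.00 CPM. All 204 genes were annotated as protein-coding, and they lay between positions 9291839 (the start of AT5G26740) and 14305182 (the end of AT5G36290) of chromosome 5 in the TAIR10.1 assembly. In the 74 libraries, 164 genes reached 1 CPM in every library, and 1 gene passed the filter through epiRILs only.

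The libraries held the RNA of aerial rosettes harvested 27 days after sowing in long days, 1 library per line, from pooled plants. An epiHybrid was the F1 of a male-sterile Columbia mother, msCol, and 1 epiRIL as the father (36 libraries). An epiRIL was a recombinant inbred line of the Columbia accession that had inherited hypomethylated stretches of chromosome from an ancestor mutant in DDM1 (the ddm1-2 allele) but was itself selected for functional DDM1 (36 libraries, the fathers of these epiHybrids). The mother, msCol, carried the ms1 allele within a stretch of Landsberg erecta (Ler) DNA around MS1 on chromosome 5 and was sequenced as 2 sister lines, msCol 12 and msCol 16 (1 library each). Which of both sister lines was the mother of a given epiHybrid is not in the labels, and p-values below measure the spread between lines.

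Pericentromeric chromatin flanks the centromere and is rich in transposable elements that are kept silent by DNA methylation and compact nucleosomes. DDM1 is a chromatin remodeller that lets DNA methyltransferases reach such chromatin, and many stretches that lost methylation in ddm1 plants stay unmethylated for generations after DDM1 is restored. Recombination is rare there, so that neighbouring genes tend to be inherited together, and in the F1 the paternal chromosome meets a maternal chromosome that never passed through a ddm1 parent.

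Loss of methylation of cytosines in CG pairs is among the changes that epiRILs inherit, and other cytosine contexts are not marked below. The upstream sequences are shown for 4 of the 10 genes, described further on, that were on in some epiRILs and silent in others. Each is the stretch of 250 bases before the annotated start, read from TAIR10.1 on the gene's own strand, with CG pairs in capitals. AT5G28810 (10823106 to 10823355, plus strand) had 2 CG pairs, AT5G29560 (11191968 to 11192217, minus strand) had 6, AT5G32670 (12442290 to 12442539, minus strand) had 14 and AT5G35375 (13591947 to 13592196, plus strand) had 1.
AT5G28810: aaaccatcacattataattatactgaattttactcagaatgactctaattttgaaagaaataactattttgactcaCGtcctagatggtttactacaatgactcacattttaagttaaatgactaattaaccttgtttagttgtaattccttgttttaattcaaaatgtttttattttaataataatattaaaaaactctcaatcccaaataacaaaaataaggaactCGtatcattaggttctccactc
AT5G29560: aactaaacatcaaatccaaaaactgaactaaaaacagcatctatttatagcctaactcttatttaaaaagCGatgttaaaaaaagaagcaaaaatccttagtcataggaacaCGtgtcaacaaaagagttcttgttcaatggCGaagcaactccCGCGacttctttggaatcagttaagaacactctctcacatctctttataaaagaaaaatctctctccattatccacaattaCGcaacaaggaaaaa
AT5G32670: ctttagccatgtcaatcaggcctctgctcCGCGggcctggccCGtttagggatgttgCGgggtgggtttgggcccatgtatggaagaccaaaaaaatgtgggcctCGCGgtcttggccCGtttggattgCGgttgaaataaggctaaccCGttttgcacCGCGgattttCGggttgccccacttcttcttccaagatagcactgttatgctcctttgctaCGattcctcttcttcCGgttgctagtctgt
AT5G35375: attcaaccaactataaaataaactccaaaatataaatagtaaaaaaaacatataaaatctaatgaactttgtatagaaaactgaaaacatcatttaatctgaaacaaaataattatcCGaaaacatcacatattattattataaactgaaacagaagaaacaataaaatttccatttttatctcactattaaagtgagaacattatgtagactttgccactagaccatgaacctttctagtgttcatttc
Over the 10 genes the windows held 1 to 14 CG pairs, with a median of 5.5, against a median of 5 over the 204 genes and 5 over 19382 genes of the nuclear chromosomes. A CG pair was present in 96.4% of the windows of all those genes. The letters thus did not set the 10 genes apart by this count, and DNA methylation itself was not measured in these libraries.

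Libraries held 38.1 to 42.2 M counts, so that 1 count was worth about 0.0245 CPM. The leaf markers RBCS1A, LHCB1.3 and CAB3 were at 1347 CPM or more in every library, the root hair markers COBL9 and EXPA7 at 0.235 CPM or less, and the flower markers AP3 and PI at group medians of 2.19 to 3.19 CPM, with AP3 at 14.3 CPM in 1 epiHybrid. DDM1 was at 2.35 to 13.2 CPM in every library. In families 340 and 368 the epiHybrid library was unlike the other epiHybrids, as seen in an earlier look at the data, and 2 families went against their labels at called genes of chromosome 5. Over the 23 genes of the set called between epiHybrids and epiRILs (below), the library labelled epiHybrid differed from the library labelled epiRIL in the direction of the call at 0 genes in family 568 and at 5 in family 12, and at 15 to 23 genes in each of the 34 other families. Over the 134 called genes of chromosome 5 outside the set, the same share was 17.9% in family 568 and 27.6% in family 12, against 73.1% to 97.8% in the other families. Over the 97 called genes of other chromosomes it was 59.8% in family 568 and 40.2% in family 12, within the 37.1% to 91.8% of the other families. The numbers of on/off genes, of genes called between groups and of genes that passed the tests of transmission were also taken without both families. Other counts, medians and ranges include both families unless said otherwise.

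**Figure D1:**
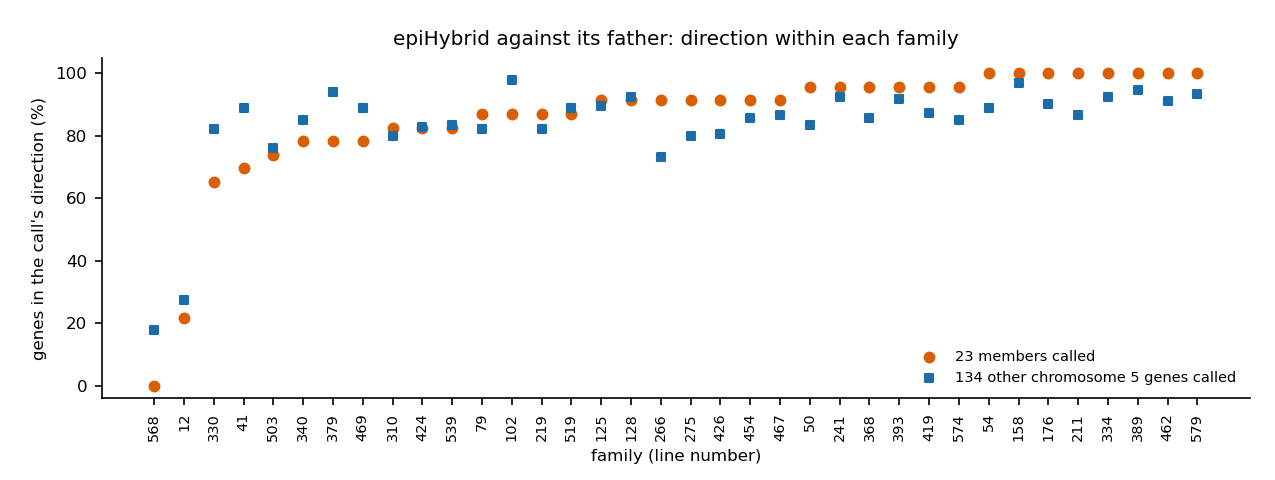
Percent of called genes that differed within a family (epiHybrid against its epiRIL father) in the direction of the call, for each of 36 families in ascending order, over 23 called genes of the set (circles) and 134 other called genes of chromosome 5 (squares). Families 568 and 12 lie far below the others on both measures, at 0% and 21.7% over the 23 genes.

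How much the 204 genes varied among lines was asked first. In these bulk samples fewer cells of a type and less RNA per cell cannot be told apart. The median SD of log2(CPM + 1) was 0.281 among epiHybrids and 0.213 among epiRILs, beside 0.260 and 0.201 over all tested genes. The SD was larger among epiRILs than among epiHybrids in 33 of the 204 genes (16.2%), beside 15.1% of all tested genes. By the median the set thus varied about as much as the rest of the genome, and what differed was its upper end. The 90th percentile of the SD among epiRILs was 0.493 in the set, beside 0.397 over all tested genes. An epiRIL SD of at least 1 was found in 9 of the 204 genes (4.41%), beside 0.733% of all tested genes.

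Genes were called on/off when at least 3 epiRILs had at most 3 counts and at least 3 epiRILs had at least 1 CPM. The set held 11 such genes, 5.39% of its genes, beside 1.41% of all tested genes. These were AT5G27340, AT5G28090, AT5G30360 and AT5G35375 (proteins of unknown function), AT5G28235 and AT5G28810 (annotated in the Ulp1 protease family, whose founding yeast member removes the small modifier SUMO from proteins), AT5G29050 (a protein with a DUF3287 domain), AT5G29560 (related to caleosins, calcium-binding proteins of oil bodies), AT5G32590 (similar to myosin heavy chains), AT5G32670 (with a START domain, a fold that binds lipids) and WNK9 (AT5G28080, a protein kinase of the with-no-lysine family). Without families 12 and 568 the count was 10, because WNK9 was then no longer on in 3 epiRILs.

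AT5G28810 (10823356 to 10826646, plus strand) had the largest spread of the 204 genes. Among epiHybrids it had a lowest value of 0, a median of 0.0954 and a highest of 58.7 CPM. Among epiRILs it had a lowest value of 0, a median of 0.0497 and a highest of 99.9 CPM. In msCol it had 1 count in msCol 12 and 0 in msCol 16. It was at 1 CPM or more in 15 epiRILs and at 3 counts or fewer in 19, so that few lines lay between the states. AT5G29560 (11190414 to 11191967, minus strand) reached 34.0 CPM among epiHybrids and 155 CPM among epiRILs, the highest epiRIL value of the on/off genes. It was on in 6 epiRILs, as was AT5G35375. AT5G29050 (11111692 to 11112283) reached 28.2 CPM among epiHybrids and 37.8 CPM among epiRILs, AT5G30360 (11550429 to 11551302) 13.9 and 28.9 CPM, and AT5G28090 (10101042 to 10102274) 14.5 and 22.6 CPM. These 3 genes were on in 11, 10 and 11 epiRILs and had no count in either msCol library. AT5G28235 (10201271 to 10203335) reached 9.94 CPM among epiHybrids and 17.4 CPM among epiRILs, AT5G32670 (12440488 to 12442289) 5.55 and 10.7 CPM, and AT5G32590 (12221589 to 12224322) 4.44 and 8.14 CPM. The weakest were AT5G35375 (13592197 to 13593149), with up to 3.54 CPM among epiHybrids and 4.29 CPM among epiRILs, and AT5G27340 (9635885 to 9636884), with up to 1.25 and 2.53 CPM. In each of these genes the highest epiRIL was above the highest epiHybrid. In msCol the 10 genes other than WNK9 had at most 1 count in either library, except AT5G35375 with 6 counts in msCol 16.

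Some of these values cannot be assigned to 1 locus. At least 95% identical matches of 50 bases or more elsewhere in the genome covered 99.1% of the exon bases of AT5G28235, 54.1% of those of AT5G28810 and 29.4% of those of AT5G32670, and the rule used for reads that map to several places was not given in the sources used here. Of the 10 genes, 6 had no such match. AT5G28235 overlaps AT5G28232 on the opposite strand and AT5G32670 overlaps AT5G05055 on the same strand, and whether reads were counted by strand was not stated.

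Most on/off genes shared many of the lines in which they were on, and WNK9 did not, with a Jaccard index of at most 0.0909 with any other on/off gene in epiRILs. Joining genes whose sets of on epiRILs overlapped with a Jaccard index (shared lines over all lines on in either gene) of at least 0.6 gave 1 block of 10 genes, all but WNK9, that spanned 3.96 Mb. Over the 45 pairs of these genes the index had a median of 0.6 in epiHybrids (0.273 to 0.909) and 0.667 in epiRILs (0.364 to 0.917). Between the 9 pairs of neighbours it was 0.545 to 0.917 in epiRILs, and between the genes at the ends of the block, 3.96 Mb apart, it was 0.364. A Jaccard index has no test here, since the genes are linked and their lines are shared.

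**Figure D2:**
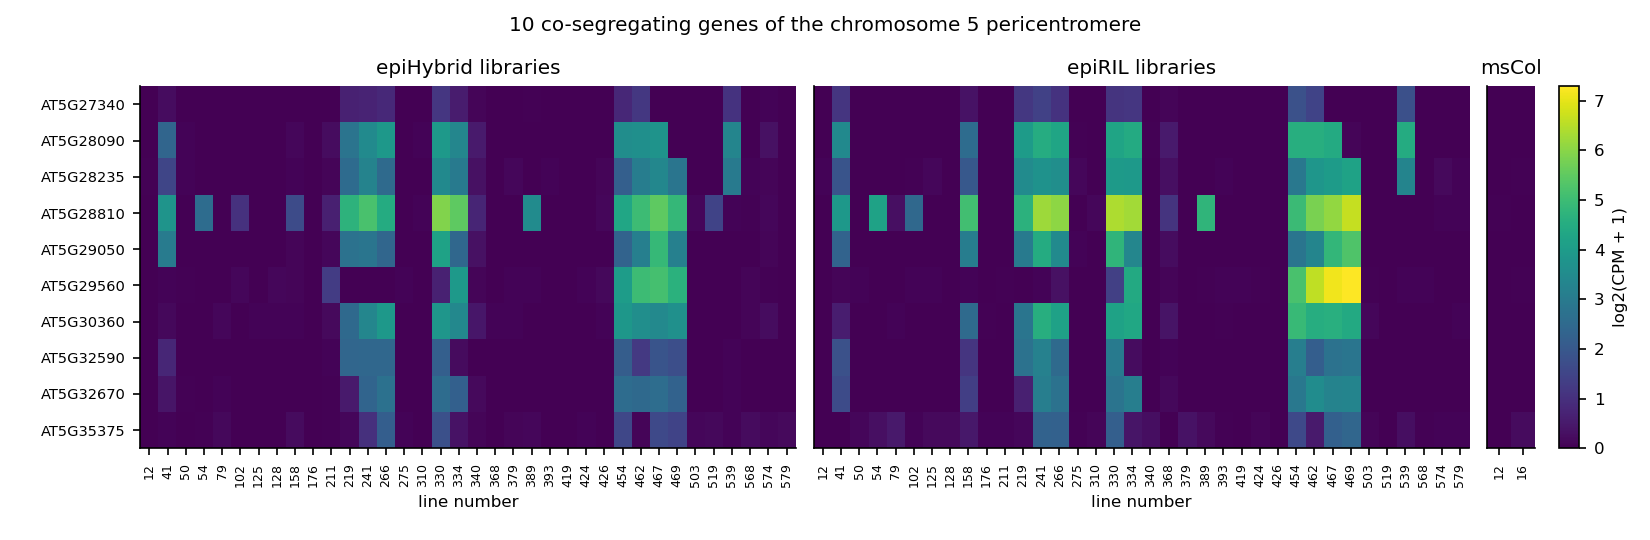
Level as log2(CPM + 1), by colour, of the 10 block genes (rows, in order along chromosome 5) in 36 epiHybrids (left), 36 epiRILs (middle) and the msCol lines 12 and 16 (right), with lines in ascending number. Most columns are lit or dark in both the left and the middle panel, column 158 is lit at 1 gene on the left and at 7 in the middle, and both msCol columns are dark.

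The lines differed in how much of the block was on. All 10 genes were on in 2 epiRILs (lines 330 and 454), none in 20, and some in 14, of which lines 462, 467, 241 and 266 had 9 genes on and lines 469 and 334 had 8. In 4 lines the state changed at 1 place along the block. Line 539 was on at AT5G27340, AT5G28090 and AT5G28235 and off at the 7 genes from AT5G28810 onwards. Line 469 was off at AT5G27340 and AT5G28090 and on at the 8 genes from AT5G28235 onwards, with the highest summed level of the block of any library, 350.1 CPM, against 85.9 CPM in its epiHybrid. Line 467 was off only at AT5G27340, and line 462 only at AT5G35375. Lines 241 and 266 were on at every gene except AT5G29560, which had neighbours on in both directions. Lines 54, 102, 368 and 389 were on only at AT5G28810, with a summed level of the block of 17.7, 4.62, 2.57 and 26.4 CPM.

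The father's state was next set against that of the epiHybrid, in which a gene was called on at 0.5 CPM because only 1 of its alleles came from the father. Of 360 combinations of gene and family in the block, 346 had the same state in the epiHybrid and its father. Of these 346, 90 were on in both and the rest were off in both. In 17 families no block gene was on in either library. The genes of the block are linked, so the combinations are not independent and only the 36 families are. Of 100 combinations that were on in the father, 90 were on in the epiHybrid. Of the 10 that were off in the epiHybrid only, 6 fell in family 158, whose epiHybrid had 2.65 CPM summed over the block, against 56.6 CPM in the father. In that family AT5G29050 had 0.0679 CPM in the epiHybrid and 7.58 CPM in the father, and the on state of AT5G28810 was the only one kept. The 4 combinations on in the epiHybrid only were AT5G28810 in families 519, 340 and 211, with 1.77, 0.692 and 0.561 CPM in the epiHybrid and no count in the father, and AT5G29560 in family 211, with 1.48 CPM in the epiHybrid and 0.0240 CPM in the father. Family 568 and family 12 had no block gene on in either library, so the block says nothing about their labels.

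Fisher's exact test (one-sided) of detection in the father and in the epiHybrid was run on the genes with at least 3 families in each state, 931 genes in all, of which 206 passed after Benjamini-Hochberg adjustment (22.1%). Of the set, 19 genes entered this test and 11 passed: the 10 block genes and AT5G35760. The strongest was AT5G28235, detected in both libraries of 11 families, in the father only of 1 and in neither of 24 (adjusted p = 8.45e-07, Fisher's exact test). AT5G28090 and AT5G29050 were each detected in both libraries of 10 families, in the father only of 1 and in neither of 25 (adjusted p = 1.22e-06, Fisher's exact test). AT5G28810 was detected in both libraries of 14 families, in the father only of 1, in the epiHybrid only of 3 and in neither of 18 (adjusted p = 2.36e-05, Fisher's exact test). The number of genes of the set that passed stayed within 1.5 times when families 12 and 568 or families 340 and 368 were left out, and when the epiHybrid was called on at 1 CPM.

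The least-squares slope of epiHybrid on father on the CPM scale had a median of 0.521 over the 10 block genes, and it was 0.483 ± 0.037 for AT5G28810, 0.541 ± 0.028 for AT5G28235, 0.527 ± 0.027 for AT5G28090 and 0.514 ± 0.026 for AT5G30360 (SE, n = 36 families each). AT5G29560 was the lowest, at 0.221 ± 0.014, and AT5G35375 the highest, at 0.569 ± 0.047 (SE, n = 36 each). The slopes of the 9 genes other than AT5G29560 were 0.455 ± 0.042 in AT5G27340 and above. The maternal and paternal alleles were not told apart in these counts. In the family with its highest father, 469, AT5G29560 had 24.2 CPM in the epiHybrid and 155 CPM in the father.

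**Figure D3:**
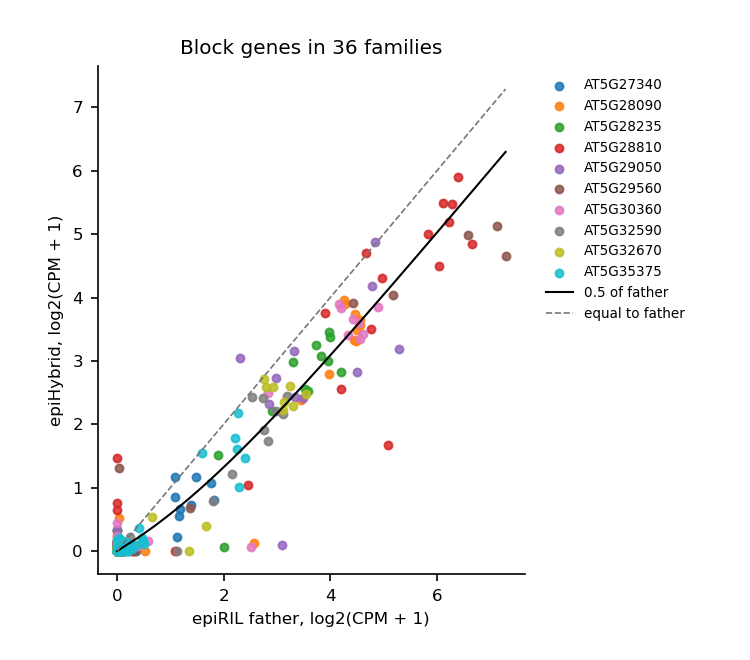
Level of the 10 block genes in the epiHybrid against that in the epiRIL father, both as log2(CPM + 1), 1 point per gene and family over 36 families. The solid curve is 0.5 of the father's CPM and the dashed line is equality, and most points of expressed genes lie along the solid curve, with AT5G29560 below it at its highest fathers and 6 points of family 158 near the bottom.

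By likeness of profile over the 36 epiRILs, the genes closest to AT5G28810 were AT5G29050 (Pearson's r = 0.902), AT5G30360 (0.885), AT5G32670 (0.879), AT5G35760 (0.859) and AT5G28235 (0.843). Over the 36 epiHybrids the same 5 genes had r of 0.911, 0.889, 0.872, 0.884 and 0.853. These values describe linked genes in the same libraries and carry no test. AT5G35760 (annotated as related to beta-galactosidases, 13934108 to 13935088) was not an on/off gene by the rule, because it kept a low level in all lines, from 0.0727 to 5.42 CPM among epiHybrids and from 0.138 to 7.54 CPM among epiRILs, with 0.0756 and 0.0769 CPM in msCol 12 and 16. It lay 3.11 Mb from AT5G28810.

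Across the set, the permutation test of Pearson's r between father and epiHybrid (one-sided, 100000 shuffles, on log2(CPM + 1), Benjamini-Hochberg adjusted over all tested genes) was passed by 36 of the 204 genes, 17.6%, beside 18.3% of all tested genes. The set as a whole was thus transmitted no more often than the background by this measure. The median r was 0.277 in the set and 0.273 over all genes. In 17 of the 36 the fathers fell into separate clusters (neighbouring values 0.25 of the whole range apart or more), so that no r is given for them. The number that passed moved with the families kept: it was 63 (30.9%, beside 31.6% of all tested genes) without families 340 and 368, 30 (14.7%, beside 13.4%) without families 12 and 568, and 15 (7.35%, beside 5.48%) without the 2 most extreme fathers of each gene.

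Of the 19 genes without clusters, AT5G28810 and AT5G35760 had the highest r, 0.956 and 0.952 (permutation p = 1e-05 each, the smallest that the shuffles could give; adjusted p = 0.000757). Their Spearman's rho was 0.803 (permutation p = 1e-05) and 0.690 (permutation p = 2e-05), and r without the 2 farthest fathers was 0.950 and 0.948. The next 6 had r between 0.486 and 0.590. AT5G32470, a heme oxygenase-like protein, had 18.8 to 29.1 CPM among epiHybrids and 18.5 to 29.8 CPM among epiRILs, with r = 0.590 (permutation p = 0.00027, adjusted p = 0.00933) and rho = 0.394 (permutation p = 0.00864), but r fell to 0.366 without the 2 farthest fathers (permutation p = 0.0177). MRU1 (AT5G35490, named for its induction in the methionine-overaccumulating mutant mto1) had 11.6 to 42.0 CPM among epiHybrids and 12.9 to 43.1 CPM among epiRILs, with r = 0.512 (permutation p = 0.00072, adjusted p = 0.0166), rho = 0.501 (permutation p = 0.00133) and r = 0.493 without the 2 farthest (permutation p = 0.00131). CYP81D1 (AT5G36220), a cytochrome P450, had 7.82 to 71.9 CPM among epiHybrids and 10.1 to 48.0 CPM among epiRILs, with r = 0.490 (permutation p = 0.00177, adjusted p = 0.0261), rho = 0.398 (permutation p = 0.00871) and r = 0.394 without the 2 farthest (permutation p = 0.0105). The other 3 of these 6 genes were AT5G26770 (r = 0.542, permutation p = 0.00024, rho = 0.511, permutation p = 0.00078), AT5G27750, an F-box protein (r = 0.508, permutation p = 0.00084, rho = 0.413, permutation p = 0.00658), and AT5G35970, a nucleoside triphosphate hydrolase (r = 0.486, permutation p = 0.00264, rho = 0.476, permutation p = 0.0018). With all families these 3 genes passed too (adjusted p = 0.00861 for AT5G26770 and 0.0181 for AT5G27750). Without the 2 farthest fathers their r was 0.441, 0.442 and 0.437, and their adjusted p was 0.0632, 0.0608 and 0.0744. The unadjusted permutation p was then 0.00451 for AT5G26770 and 0.0042 for AT5G27750. It was larger for AT5G32470 and CYP81D1 (above), so their adjusted p was no lower than that of AT5G26770, and they failed too. Only MRU1 had a smaller one than AT5G26770 and AT5G27750 among the first 3 described.

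A few genes of the set were extreme in 1 or more fathers. For each of them except LACS7 (below), the families named here were also extreme among the epiHybrids. These genes were chosen after their values were seen, and no test is given. AT5G28560, of unknown function, was on in fathers 266 and 469 only, with 4.50 CPM in the epiHybrid and 5.76 CPM in the father of family 266, and 1.95 CPM in the epiHybrid and 7.44 CPM in the father of family 469. In the 34 other families it had at most 0.264 CPM among epiHybrids and 0.104 CPM among epiRILs. AT5G35680, a nucleic acid-binding protein with an OB fold, had 31.4 CPM in the epiHybrid of family 393, below the 40.9 to 85.6 CPM of the 35 other epiHybrids, and 6.48 CPM in its father, below the 55.7 to 76.8 CPM of the 35 other epiRILs. AT5G26970 had 2.75 CPM in the epiHybrid and 5.89 CPM in the father of family 462, against at most 1.23 CPM in the other epiHybrids and 1.48 CPM in the other epiRILs. LACS7 (AT5G27600), a peroxisomal long-chain acyl-CoA synthetase that prepares fatty acids for breakdown, went the other way round from the block, since its low state was the rarer one. Its level was 1.74 to 6.10 CPM in 9 epiRILs and 17.7 to 40.6 CPM in the 27 others, with 23.5 and 25.7 CPM in msCol 12 and 16. The epiHybrids of the 9 low fathers had 7.98 to 25.9 CPM, each above its father. The epiHybrids of the 27 others had 11.9 to 37.2 CPM, so that both ranges overlapped.

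The comparison of epiHybrids with their fathers asked which genes differed whatever the father's state. The edgeR quasi-likelihood test with the family as a block called 23 of the 204 genes, 8 higher and 15 lower in epiHybrids (adjusted p under 0.05), 11.3% of the set beside 1.31% of all tested genes. For higher calls alone the set had 3.92%, beside 0.371%, and for lower calls 7.35%, beside 0.939%. Calls were also denser on the rest of chromosome 5 than on other chromosomes. Outside the set, 134 of its 4306 tested genes were called, against 97 genes on all other chromosomes. The count was 19 without the family block, beside 0.851% of all tested genes. Without families 12 and 568 it was 29, with all 23 still called, beside 1.63% of all tested genes, and both families had been picked for going against these calls. None of the 10 block genes was among the 23, although their fitted log2 fold changes were all below 0, and AT5G35375 was called lower without families 12 and 568 (-0.92 in log2 units, adjusted p = 0.0346).

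The 4 strongest rises were in genes with an epiRIL median of 0.360 CPM or less. AT5G32460 (12081803 to 12084161, minus strand), of the B3 family of plant transcription factors, had a lowest value of 0, a median of 1.39 and a highest of 4.12 CPM in epiHybrids, and a lowest of 0, a median of 0 and a highest of 2.94 CPM in epiRILs. It was at 0.5 CPM or more in 29 epiHybrids and in 4 epiRILs, those of lines 12, 219, 275 and 568. Its level was higher in epiHybrids by 4.48 ± 0.48 log2 units (SE, adjusted p = 4.75e-08), and by 5.16 ± 0.33 without families 12 and 568, both fitted from few counts in epiRILs. AT5G33330 (12591683 to 12592904, minus strand), annotated as ribonuclease H-like, had a lowest value of 0, a median of 0.856 and a highest of 1.99 CPM in epiHybrids, and 0, 0 and 1.01 CPM in epiRILs, where only lines 12 and 568 reached 0.5 CPM. Its level was higher in epiHybrids by 3.89 ± 0.50 (SE, adjusted p = 9.89e-07) and by 4.59 ± 0.37 without both families. AT5G33330 reached 1 CPM in 14 epiHybrids and 1 epiRIL, so it passed the filter through the epiHybrids, the group in which it was higher. It overlaps AT5G33320, the phosphoenolpyruvate translocator gene, on the opposite strand. In msCol both genes were detected in msCol 12, at 1.94 and 0.857 CPM, and nearly or wholly absent in msCol 16, at 0.154 and 0 CPM. The epiHybrids below 0.5 CPM at AT5G32460 were those of families 12, 79, 330, 503, 539, 568 and 579, and all of these except 579 were below it at AT5G33330 too.

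WNK9 (10089995 to 10092721, minus strand) had a lowest value of 0.0504, a median of 1.60 and a highest of 4.51 CPM in epiHybrids, and 0, 0.120 and 2.04 CPM in epiRILs. It was higher in epiHybrids by 2.88 ± 0.37 log2 units (SE, adjusted p = 8.13e-07, higher in 33 of 36 families) and had 0.681 and 2.23 CPM in msCol 12 and 16. AT5G35510 (13698496 to 13700144), annotated as a disease resistance protein of the TIR-NBS-LRR class, had a lowest value of 0.124, a median of 0.949 and a highest of 2.38 CPM in epiHybrids, and 0.0691, 0.360 and 1.34 CPM in epiRILs. It was higher in epiHybrids by 1.13 ± 0.20 (SE, adjusted p = 0.000269, higher in 30 of 36 families), while msCol 12 and 16 had 0.429 and 0.205 CPM. Its groups overlapped, as did those of WNK9, and the highest WNK9 values among epiRILs were in line 219 and in lines 12 and 568.

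**Figure D4:**
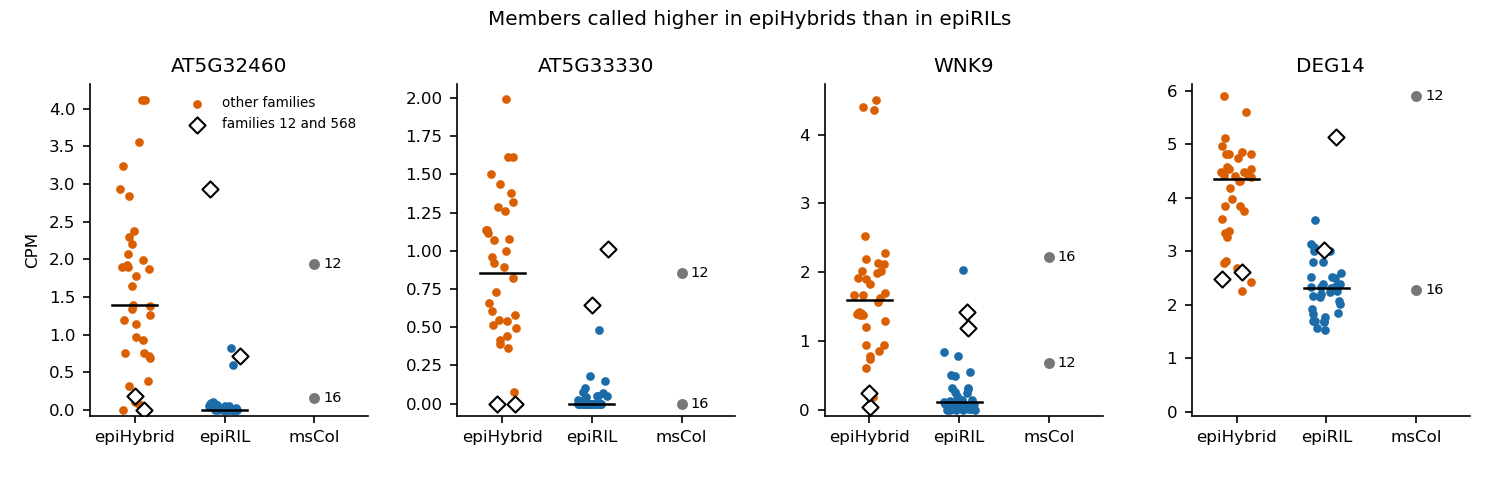
CPM of AT5G32460, AT5G33330, WNK9 and DEG14 in 36 epiHybrids, 36 epiRILs and the msCol lines 12 and 16 (labelled points), with the group medians as lines and families 12 and 568 as diamonds. For WNK9 the diamonds lie at 0.0504 and 0.253 CPM among epiHybrids and at 1.42 and 1.19 CPM among epiRILs.

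The other 4 higher genes were expressed in all lines. DES1 (AT5G28030), an enzyme that releases sulfide from cysteine, had 17.4 to 47.4 CPM in epiHybrids (median 33.4) and 13.6 to 35.1 CPM in epiRILs (median 18.3), and 57.1 and 36.1 CPM in msCol 12 and 16. Its log2 fold change was 0.79 ± 0.08 (SE, adjusted p = 1.73e-08, higher in 32 of 36 families). DEG14 (AT5G27660), a protease with a PDZ domain, had 2.25 to 5.90 CPM in epiHybrids (median 4.34) and 1.52 to 5.13 CPM in epiRILs (median 2.32), and rose by 0.77 ± 0.08 (SE, adjusted p = 6.16e-08, higher in 34 families). DEG14 overlaps AT5G04415 on the opposite strand. AT5G28910, annotated as a fucosyltransferase and named after its values were seen, rose by 0.59 ± 0.08 (SE, adjusted p = 8.55e-07) and AT5G27730, annotated as similar to an N-acetyltransferase that acts on heparan sulfate, by 0.37 ± 0.04 (SE, adjusted p = 9.33e-08, higher in 34 families). The last had 50.1 to 78.7 CPM in epiHybrids (median 63.1) and 41.0 to 70.3 CPM in epiRILs (median 47.2).

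The 15 lower genes had log2 fold changes from -0.71 to -0.14. AT5G27890, of unknown function, was lower, at -0.71 in log2 units (SE 0.12, adjusted p = 0.000227), with a median of 1.35 CPM in epiHybrids and 2.34 CPM in epiRILs. AT5G27230, similar to the flowering regulator FRIGIDA, fell by 0.60 (SE 0.16, adjusted p = 0.0399), with a median of 0.450 CPM in epiHybrids and 0.671 CPM in epiRILs, and was not called without families 340 and 368 (adjusted p = 0.05003) or without the block (adjusted p = 0.198). GLR2.1 (AT5G27100), a glutamate receptor-like channel, fell by 0.55 (SE 0.12, adjusted p = 0.00677), and AT5G28350, annotated as a RIC1-like exchange factor, by 0.55 (SE 0.08, adjusted p = 7.33e-06). All exon bases of AT5G28350 had near-identical matches elsewhere, and GLR2.1, AT5G27990 and SYP41 each overlap a gene on the opposite strand. AT5G27990, similar to the ribosomal RNA processing factor TSR2, fell by 0.53 (SE 0.08, adjusted p = 1.81e-05). SYP41 (AT5G26980), a syntaxin of the trans-Golgi network, was lower by a log2 difference of -0.53 (SE 0.07, adjusted p = 3.27e-06, lower in 34 of 36 families). SYP41 had 3.03 to 11.4 CPM in epiHybrids (median 7.25) and 5.47 to 13.4 CPM in epiRILs (median 10.7), and 2.04 and 8.18 CPM in msCol 12 and 16. Among the other 9, of which these were chosen after their values were seen, were CBP60G (AT5G26920), a calmodulin-binding regulator of salicylic acid synthesis, which fell by 0.46 (adjusted p = 5.31e-05), CYSD2 (AT5G28020), a cysteine synthase, which fell by 0.35 (adjusted p = 3.36e-05), AT5G28060, a ribosomal protein of the S24e family, which fell by 0.37 (adjusted p = 0.00294), and GSH2 (AT5G27380), the glutathione synthetase, which fell by 0.14 (adjusted p = 0.00285).

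The msCol values, which the test of epiHybrids against epiRILs did not use, lay mostly on the epiHybrid side. The msCol 12 value was on the epiHybrid side of the epiRIL mean in 22 of the 23 genes and beyond the epiHybrid mean in 20. For those 20 this is the same as saying that the epiHybrid mean lay between the epiRIL mean and msCol 12. The msCol 16 value was on the epiHybrid side in 18 of the 23 genes, beyond the epiHybrid mean in 9, and between msCol 12 and the epiRIL mean in 15. No such count was made for called genes outside the set, so these counts have no background. The 23 genes are also linked to each other. The sister lines differed from each other at these genes, by a median absolute difference of 0.457 on the log2(CPM + 1) scale, beside 0.241 over the 204 genes and 0.182 over all tested genes. With 1 library per msCol line these differences have no replicate check.

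The parental comparison asked which genes of the set differed between fathers and mother. It shares its epiRIL libraries with the comparison above and its msCol libraries with the next. The edgeR test called 9 of the 204 genes, 5 higher and 4 lower in epiRILs, 4.41% of the set beside 2.75% of all tested genes (1.19% higher and 1.56% lower). AT5G27110, of the tetratricopeptide repeat family, had 1.03 to 2.80 CPM in epiRILs (median 1.85), against 0.101 and 0.923 CPM in msCol 12 and 16, and was higher by 1.91 ± 0.37 log2 units (SE, adjusted p = 0.000426). SYP41 was higher by 1.05 ± 0.27 (SE, adjusted p = 0.0136), AT5G26800, an aminopeptidase, by 0.81 ± 0.19 (SE, adjusted p = 0.0064), HTA7 (AT5G27670), a histone H2A, by 0.68 ± 0.20 (SE, adjusted p = 0.0434), and AT5G36210, of the alpha/beta-hydrolase superfamily, by 0.30 ± 0.08 (SE, adjusted p = 0.0363). DES1 had 13.6 to 35.1 CPM in epiRILs (median 18.3), against 57.1 and 36.1 CPM in msCol 12 and 16, and was lower in epiRILs, at -1.31 in log2 units (SE 0.20, adjusted p = 7.93e-06). BZO2H3 (AT5G28770), the bZIP transcription factor also called bZIP63, which acts in the response to low energy, had 19.7 to 46.4 CPM in epiRILs (median 36.9), against 68.7 and 71.8 CPM in msCol 12 and 16, and fell by 0.97 (SE 0.16, adjusted p = 1.71e-05). AT5G27730 fell by 0.77 (SE 0.12, adjusted p = 5.79e-06) and AT5G27750 by 0.54 (SE 0.15, adjusted p = 0.0256). Without msCol 12 only 1 of the 204 genes was called, BZO2H3, beside 1.14% of all tested genes called. The log2 fold change without msCol 12 was 0.37 for SYP41, 0.42 for HTA7 and -0.19 for AT5G27750, and it was 1.06 for AT5G27110, 0.93 for AT5G26800 and -0.94 for DES1. Without msCol 16 the test called 7 genes, beside 0.660% of all tested genes.

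The comparison of epiHybrids with their mother called 2 of the 204 genes, 1 higher and 1 lower, 0.98% of the set beside 1.83% of all tested genes (0.795% higher and 1.04% lower), and 3 genes without families 12 and 568, beside 1.76%. AT5G27110 had 0.899 to 2.43 CPM in epiHybrids (median 1.37), against 0.101 and 0.923 CPM in msCol 12 and 16, and was higher by 1.44 ± 0.36 log2 units (SE, adjusted p = 0.0158). The call was lost without msCol 12, where the value was 0.60 (adjusted p = 0.688). BZO2H3 had 20.1 to 46.7 CPM in epiHybrids (median 34.6), against 68.7 and 71.8 CPM in msCol, and fell by 0.97 (SE 0.16, adjusted p = 3.53e-05). Both msCol libraries were above every epiHybrid and every epiRIL at this gene, and its difference between epiHybrids and epiRILs was -0.01 on the log2 scale (SE 0.05, adjusted p = 0.968). The 10 block genes were not called in either comparison with msCol, and no fold is given for them, since msCol was at or near 0 and so were most lines.

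Linkage to the maternal segment was described by the distance from the end of MS1 at position 7370295. Of the genes called between epiHybrids and epiRILs, 17 of the 23 lay at 2 to 3 Mb, where 100 of the 204 genes lay, 17% of the genes in that bin. The bins at 1 to 2, 3 to 4, 4 to 5, 5 to 6 and 6 to 7 Mb held 0 of 10, 1 of 20, 1 of 9, 2 of 12 and 2 of 53 genes called. With bins of 0.5 Mb, 32% of the 25 genes at 2.5 to 3 Mb were called. The share called thus differed between bins. The nearest bin held only 10 genes, too few to read a trend with distance from its 0 calls. Of 4306 other tested genes of chromosome 5, 134 were called. Where the Ler stretch ends among these bins was not determined here. In the parental comparison 7 of the 9 called genes lay at 2 to 3 Mb, BZO2H3 at 3426 kb and AT5G36210 at 6877 kb. Without families 12 and 568, 20 of the 100 genes at 2 to 3 Mb and 5 of the 53 at 6 to 7 Mb were called between epiHybrids and epiRILs.

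**Figure D5:**
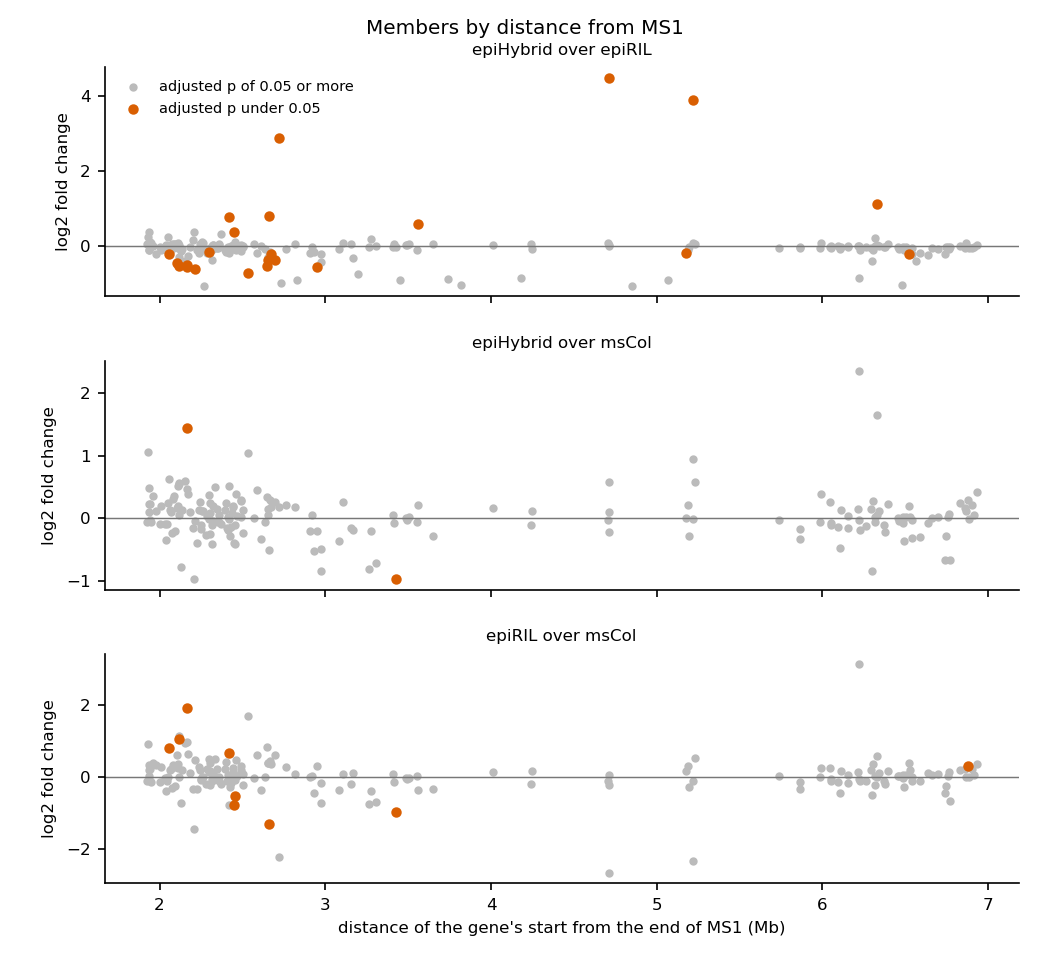
Log2 fold change of the genes of the set against the distance of their start from the end of MS1 in Mb, for epiHybrid over epiRIL (top, 204 genes), epiHybrid over msCol (middle) and epiRIL over msCol (bottom, both without the 12 genes that had at most 3 counts in each msCol library), with called genes in orange. Of the 23 called genes in the top panel, 17 lie at 2 to 3 Mb.

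Known roles were grouped in 5 lists. Counts of called genes in them stand beside 11.3% of the set and 1.31% of all tested genes between epiHybrids and epiRILs. These shares were 4.41% and 2.75% for epiRILs against msCol, and 0.98% and 1.83% for epiHybrids against msCol. Of 13 translation genes, AT5G28060 fell between epiHybrids and epiRILs and none rose, with a median log2 fold change of -0.03, beside -0.03 over the set. None of the 13 was called in either comparison with msCol. The most abundant were RPS1 (AT5G30510), the plastid ribosomal protein S1, with a median of 403 CPM in epiHybrids and 391 CPM in epiRILs, and AT5G27850, a ribosomal protein of the L18e/L15 superfamily, with 173 and 160 CPM. Of 14 metabolic genes, DES1 rose and CYSD2 and GSH2 fell between epiHybrids and epiRILs, with a list median of 0.00. DES1, CYSD2 and GSH2 all act on cysteine or its use. They were set together because they were called, DES1 (AT5G28030) and CYSD2 (AT5G28020) have neighbouring identifiers, and a shared role was not tested. GS2 (AT5G35630), the chloroplast glutamine synthetase that re-assimilates ammonium, was the most abundant gene of the set, with a median of 1079 CPM in epiHybrids and 1191 CPM in epiRILs, and was not called. PAP26 (AT5G34850), an acid phosphatase, GME (AT5G28840), which makes GDP-galactose for ascorbate synthesis, and CAC2 (AT5G35360), the biotin carboxylase subunit of plastid acetyl-CoA carboxylase, had medians of 181, 145 and 140 CPM in epiHybrids and 185, 147 and 136 CPM in epiRILs. None of these 3 was called in any comparison, nor were NHX1 (AT5G27150), a vacuolar sodium/proton exchanger, or YAK1 (AT5G35980), a protein kinase. Of 13 signalling genes that passed the filter, CBP60G fell between epiHybrids and epiRILs and BZO2H3 fell in both comparisons with msCol. BIP1 (AT5G28540), a chaperone of the endoplasmic reticulum, had a median of 104 CPM in epiHybrids and 127 CPM in epiRILs and was not called, and 66.5% of its exon bases had near-identical matches elsewhere. Of 8 genes for chromosomes and DNA that passed the filter, only HTA7 was called, higher in epiRILs than in msCol, and MBD02 (AT5G35330), a methyl-CpG-binding domain protein, had a median of 29.5 CPM in epiHybrids and 29.1 CPM in epiRILs. Of 7 triterpene and cytochrome P450 genes, only CYP81D1 passed the filter, and it was not called in any comparison.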

How the data were processed

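RNA was measured in 74 libraries of rosettes. Per the labels and the study's methods, the authors trimmed reads with Trim Galore, aligned them to TAIR10 with TopHat2 and counted them per gene with featureCounts, and they deposited the raw counts, which carry no normalization. Versions, strand setting and the treatment of reads with several matches were not given in the sources used here. Samples were grouped by the line label and families by the line number in the title. Except in the filter, CPM are counts divided by the TMM-scaled library total in units of 1 M (factors 0.756 to 1.09).

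The filter kept genes that reached 1 CPM, by plain library totals without TMM scaling, in 2 or more libraries. These genes were tested with edgeR 4.0.16 (quasi-likelihood, R 4.3.3, Benjamini-Hochberg adjustment over 19383 genes, threshold 0.05). The fit of epiHybrids against epiRILs had the family as a block, and both comparisons with msCol were fitted over all 74 libraries. The numbers were taken to pair an epiHybrid with its father. Deviations from the group means correlated by 0.588 ± 0.274 (SD, n = 36 families) over the set within families, and by more than 0.1 in 33 of 36. With other fathers the mean correlation was 0.0134. The own father had the highest correlation in only 11 of 36 families over the set, and in 20 over all tested genes. Transmission used permutation and Fisher's exact tests (numpy 2.4.6, scipy 1.17.1, numba 0.67.0). Near-identical copies were sought with blastn 2.17.0, and positions and upstream sequences come from the RefSeq annotation of TAIR10.1, to which all 362 identifiers matched. The alternatives were median-of-ratios size factors, DESeq2 1.42.0, other filters, pseudocounts, thresholds and bins, removal of 5 principal components, the slope of expression on exon length as a covariate, and leaving out families or msCol lines. The fits were tested on simulated data.

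The genes and lists were chosen with earlier results of these data known. Named were the on/off and block genes, up to 6 called genes in each direction of each comparison, the 8 highest r without clusters, the ends of the range, the 3 most abundant genes, up to 4 per role list and the 5 likest AT5G28810; others are said to have been chosen after their values were seen.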

Additional observations from a re-analysis of the deposited data

How the results depend on the processing

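Leaving out the family block gave 19 genes called between epiHybrids and epiRILs (beside 0.851% of all tested genes) in place of 23 (1.31%). The pairing of the numbers comes from the crosses. For epiRILs against msCol, 22 genes were called with both groups alone (beside 5.64% of all tested genes), 19 by DESeq2 (4.05%), 17 with the length slope as a covariate (5.29%), 14 without families 340 and 368 (4.62%) and 14 without families 12 and 568 (2.72%), in place of 9 (2.75%), and 1 to 7 when 1 msCol library was left out (1.14% without msCol 12 and 0.660% without msCol 16). For epiHybrids against msCol, the counts were 1 with both groups alone (0.918%), 10 by DESeq2 (3.18%), 8 without families 340 and 368 (3.78%) and 6 with the length slope (3.78%), in place of 2 (1.83%), and 1 to 3 when 1 msCol library was left out, where a lone msCol sample is assumed to vary like the other groups. With 1 CPM asked in 36 libraries, father-to-epiHybrid r was passed by 19 of 180 genes (10.6%, beside 15.8% of all tested genes). It was passed by 63 (30.9%, beside 31.6%) without families 340 and 368 and by 15 (7.35%, beside 5.48%) without the 2 farthest fathers. In the main setting it was passed by 36 (17.6%, beside 18.3%). The highest share called by distance was 32% with 0.5-Mb bins, in place of 17%. The cause of these differences was not tested. No called value changed sign. Leaving out families 12 and 568, the settings for slopes and the detection test at 1 CPM were added after seeing the data. With 2 msCol libraries, levels in the mother have little precision.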
